A study of Mus musculus with 2 samples.

Results

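Histones package DNA into nucleosomes, and their genes fall into a clustered class, written Hist1 to Hist4 in these symbols, and a replacement class outside the clusters. The members are the genes whose symbol begins with such a cluster name, together with H2afx, H2afy, H2afz, H2afv, H2afj, H3f3a, H3f3b and H1f0, each with at least 1 protein-coding transcript in annotation M21. They number 75 of 21901 genes with a protein-coding transcript and of 55536 annotated genes, 67 of them clustered and 8 replacement genes. A further 3 symbols of the cluster pattern have no protein-coding transcript and are not members. The genes were chosen by name and not by their values. Their levels were measured by sequencing polyadenylated RNA in 2 libraries of bone-marrow-derived macrophages of the C57BL/6J strain, exposed for 30 min to a ligand at 100 ng/ml. The labels disagree on the ligand, which is lipid A in one field and lipoprotein A, classed as a protein, in others. Both libraries are biological replicates of this one group, each with its own biosample but a shared donor record, and no untreated samples were analysed here. The values therefore describe treated macrophages and compare the libraries with each other, not a treatment with a control. Whether the spread between the libraries is biological or technical is not stated beyond the word biological.

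Most clustered genes are known to be switched on in S phase, when new DNA has to be packaged. Their mRNAs are the main class of animal mRNA that ends in a short stem-loop in place of a poly(A) tail, and the stem-loop is bound by the protein SLBP. Replacement genes are known to be transcribed throughout the cell cycle, usually carry introns, and give polyadenylated mRNA, so non-dividing cells such as mature macrophages can renew their histones from them. Some clustered genes are known to give polyadenylated mRNA as well. A selection for poly(A) tails takes mRNAs that end at the stem-loop poorly, so a low level of a clustered gene in these libraries does not show that the gene was inactive.

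The libraries held 37784941 expected counts over annotated genes in replicate 1 and 51904470 in replicate 2. An expected count is a read count in which reads that match several genes are divided between them. A count of 0 allows up to 3 counts, which is 0.0794 CPM (counts scaled to the library total) in replicate 1 and 0.0578 CPM in replicate 2, and such floors and the intervals below cover counting error only. All 8 macrophage markers reached 1 TPM in each library, with sums of 21821 TPM in replicate 1 and 27705 TPM in replicate 2, most of it from Lyz2 at 15907 and 22127 TPM. In the test described below, 6 of the 8 were called higher in replicate 1 and 2 lower, against 30.1% and 29.4% of all genes tested. TPM is a level per transcript length, scaled to the same total in each library. Genes annotated as ribosomal RNA took 11.2% of the counts of replicate 1 and 5.33% of those of replicate 2. Summed over 12 neutrophil markers, replicate 1 held 375 TPM and replicate 2 held 70.0 TPM. Of the 12, 5 reached 1 TPM in each library. The highest was S100a9 at 183 and 37.1 TPM, while Ly6g had 1 and 0 counts.

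The stem-loop was searched in 1 coding transcript per gene, the most abundant one, as the pattern GGNNNNTTTNNNNNCC on the transcript strand, with the first 6 and last 6 bases complementary. It was found after the stop codon in 43 of 67 clustered genes and in 1 of 8 replacement genes, H2afx. Another 15 clustered genes are annotated only to about the stop codon, so the search could not find it in them. The same pattern was found anywhere in the chosen transcript of 18 of 21826 other genes with a protein-coding transcript, or 0.0825%. On the opposite strand of any coding transcript it was found in 24 of those genes and in 0 members. It lay 21 to 58 bases after the stop codon, with a median of 31.5. The following sequences are from GENCODE M21 transcripts on mm10 (GRCm38), written 5′ to 3′ as DNA with the 16 bases of the stem-loop in capitals. They are shown because the clustered genes with this element, detected or not, divide by what follows it.
Hist2h2aa1, chr3:96246027-96246052, plus strand, 35 bases of transcript after it: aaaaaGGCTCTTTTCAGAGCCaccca
Hist2h2aa2, chr3:96239779-96239804, minus strand, 35 bases after it: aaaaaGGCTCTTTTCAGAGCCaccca
Hist1h2ap, chr13:21833026-21833049, minus strand, 3 bases after it: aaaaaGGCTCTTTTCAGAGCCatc
Hist1h3b, chr13:23752815-23752840, plus strand, 51 bases after it: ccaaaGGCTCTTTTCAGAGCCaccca
Hist1h1c, chr13:23739507-23739532, plus strand, 840 bases after it: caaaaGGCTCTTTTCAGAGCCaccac
Hist3h2a, chr11:58955167-58955192, plus strand, 1643 bases after it: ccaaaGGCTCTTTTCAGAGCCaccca
Hist1h4i, chr13:22040961-22040986, minus strand, 330 bases after it: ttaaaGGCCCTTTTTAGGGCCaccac
H2afx, chr9:44335235-44335260, plus strand, 822 bases after it: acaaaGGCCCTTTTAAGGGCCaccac

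The form in Hist1h1c, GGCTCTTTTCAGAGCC, was shared by 25 of the 44 members with a stem-loop, and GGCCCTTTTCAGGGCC by 7, all H4 genes. The forms in Hist1h4i and H2afx were in 2 members and 1 member. Abundant and undetected genes thus shared the same 16 bases, as Hist1h1c did with Hist1h3b, which had 0 counts in both libraries. A poly(A) signal word, AATAAA or ATTAAA within the last 50 bases of the chosen transcript on its own strand, was found in 17 of 67 clustered and 6 of 8 replacement genes, against 70.9% of all genes with a protein-coding transcript. The words of 4 genes follow, with the word in capitals, to show what lies at the end of the transcripts that run on past or without a stem-loop.
Hist1h1c, chr13:23740332-23740357, plus strand: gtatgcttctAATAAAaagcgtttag
Hist3h2a, chr11:58956787-58956812, plus strand: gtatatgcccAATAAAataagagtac
H3f3b, chr11:116021989-116022014, minus strand: aggccttacaAATAAActagtaagtt
H1f0, chr15:79030473-79030498, plus strand: aaaactttaaAATAAAactggaaagg

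Of 75 histone genes, 22 (29.3%) reached 1 TPM in each library, against 45.5% of all genes with a protein-coding transcript. All 8 replacement genes reached that level, while 14 of 67 clustered genes (20.9%) did. Another 52 genes, all clustered, were below 1 TPM in both libraries, and 24 of them had 0 counts in both. Hist1h4k stood between, with 1.00 count (0.53 TPM) in replicate 1 and 5.90 counts (2.59 TPM) in replicate 2. A mean of 10 TPM or more was reached by 14 genes, 7 of each class. The median of the mean levels was 69.9 TPM over the replacement genes and 0.125 TPM over the clustered genes. In the plot of levels the replacement genes hold the top 3 places, and 7 clustered genes are interleaved with the rest.

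**Figure D1:**
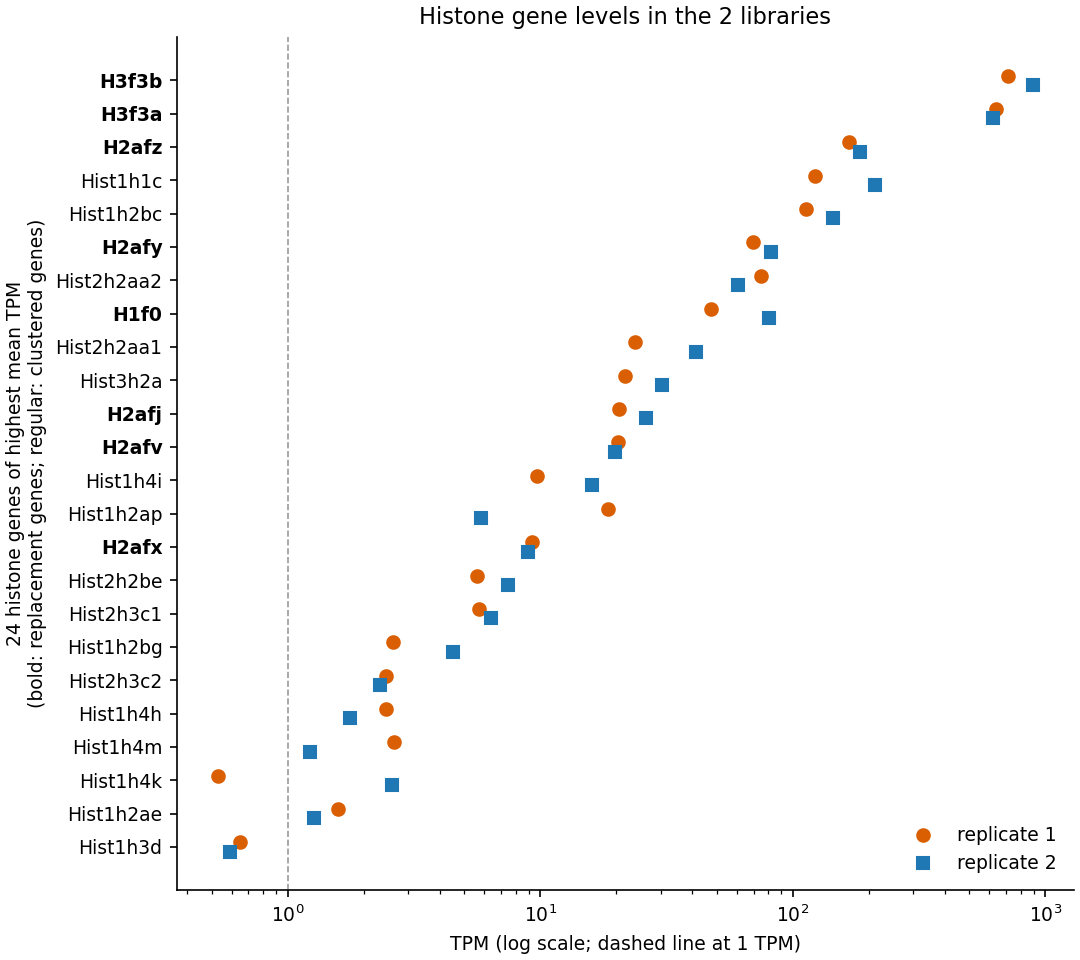
Levels of the 24 histone genes of highest mean TPM in replicate 1 (circles) and replicate 2 (squares), on a log axis in TPM, with replacement genes in bold. H3f3b is highest at 714 and 894 TPM, and Hist1h2ap shows the widest gap among genes above 5 TPM in both libraries, at 18.5 and 5.85 TPM.

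Histone genes took 0.165% of all expected counts in replicate 1 (95% Wilson interval 0.164% to 0.167%) and 0.201% in replicate 2 (0.200% to 0.203%). Replacement genes made up 85.3% of the histone counts in replicate 1 (85.0% to 85.6%) and 82.1% in replicate 2 (81.9% to 82.4%). Neither pair of intervals overlaps, so the libraries differed beyond counting error. The first share depends on the ribosomal RNA counts in the total. Without those genes it was 0.186% in replicate 1 (0.185% to 0.188%) and 0.213% in replicate 2 (0.211% to 0.214%), which lie closer together. In bulk RNA, fewer cells of a type and less RNA per cell cannot be told apart. H3f3a and H3f3b together gave 70.8% of histone counts in replicate 1 and 67.1% in replicate 2. Among the clustered counts, Hist1h1c and Hist1h2bc together gave 70.4% in replicate 1 and 74.6% in replicate 2.

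The makeup by family was uneven. In summed TPM, H3 genes stood at 1360 in replicate 1 and 1521 in replicate 2, H2A genes at 428 and 462, H1 genes at 170 and 293, H2B genes at 123 and 158, and H4 genes at 17.1 and 23.3. Replacement genes gave 99.3% and 99.4% of the H3 level in replicates 1 and 2, 66.9% and 69.5% of the H2A level, and 27.9% and 27.5% of the H1 level. No member of the H2B and H4 families is a replacement gene, so those levels came from clustered genes alone. A single gene carried most of each: Hist1h2bc was at 113 of 123 TPM of H2B in replicate 1 and at 144 of 158 TPM in replicate 2, and Hist1h4i was at 9.68 of 17.1 TPM of H4 and at 16.1 of 23.3 TPM. The families enter the nucleosome core in equal amounts as proteins, and these are levels of polyadenylated RNA only.

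**Figure D2:**
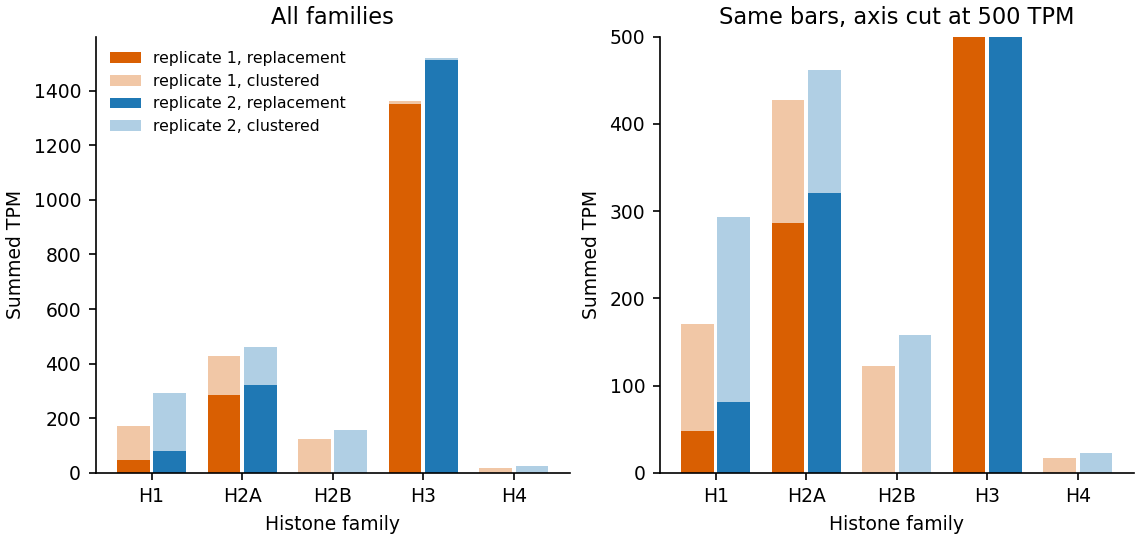
Summed TPM of each histone family in replicate 1 (left bar of each pair) and replicate 2 (right bar), divided into replacement genes (dark) and clustered genes (light). The right panel repeats the bars with the axis ending at 500 TPM, where the 2 H3 bars run past the top. H3 is almost wholly replacement RNA, H2A is 66.9% and 69.5% replacement RNA, and H2B and H4 are wholly clustered.

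The replacement H3 genes were the most abundant members. H3f3b (ENSMUSG00000016559.14, chromosome 11, 116021912 to 116027962, minus strand) had 714 TPM in replicate 1 and 894 TPM in replicate 2, and H3f3a (ENSMUSG00000060743.12, chromosome 1, 180800832 to 180813943, minus strand) had 637 and 618 TPM. Both genes encode the same replacement H3 protein, which is placed on DNA outside replication. They ranked 131 and 173 by mean TPM among 21901 genes with a protein-coding transcript. H3f3b was higher than H3f3a in both libraries. The mean levels were 804 ± 127 TPM for H3f3b and 627 ± 13.5 TPM for H3f3a (SD, n = 2), so that the gap between the genes exceeded either SD. On the opposite strand H3f3a overlaps Gm17275, annotated as a long noncoding RNA, with 62.3 and 442 counts. It also overlaps the antisense gene H3f3aos, with 2.00 and 1.00 counts. The sources used here do not say whether the counting used strand.

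The libraries differed in these genes in opposite directions. For each gene with 10 or more counts over both libraries, an exact two-sided binomial test on rounded counts, scaled by TMM, asked whether the libraries differ beyond sampling noise, with Benjamini-Hochberg adjustment over 14110 genes. H3f3b was lower in replicate 1, with a log2 ratio of replicate 1 over replicate 2 of -0.18 (exact binomial test, adjusted p = 1.76e-65), and H3f3a was higher, with a log2 ratio of 0.21 (adjusted p = 5.08e-38). The size moved with the processing while the direction held: H3f3b was at -0.32 with total counts and -0.06 in the second quantification, and H3f3a at 0.07 and 0.31. Such calls compare these libraries and no conditions, have no replicate behind them, and take in small differences where counts are high. Most H3f3b RNA was assigned to the transcript H3f3b-201, 97.1% of the gene's TPM in replicate 1 and 93.5% in replicate 2. H3f3a was divided, with 67.9% and 65.0% in H3f3a-201, 16.8% and 20.2% in H3f3a-207, and 14.3% and 13.6% in H3f3a-205.

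Of the H2A variants, H2afz was the most abundant. H2afz (ENSMUSG00000037894.13, chromosome 3, 137864487 to 137866922, plus strand), which encodes H2A.Z, a variant placed at promoters, had 167 TPM in replicate 1 and 184 TPM in replicate 2. H2afy (ENSMUSG00000015937.15, chromosome 13, 56073619 to 56136361, minus strand), which encodes macroH2A, a form with a large extra domain found on repressed chromatin, had 69.4 and 81.9 TPM. H2afj (chromosome 6, 136808244 to 136810074) had 20.6 and 26.1 TPM, and H2afv (chromosome 11, 6427229 to 6444443), which encodes another H2A.Z protein, had 20.4 and 19.8 TPM. H2afx (chromosome 9, 44334694 to 44336077), whose protein is phosphorylated at DNA breaks, was the lowest replacement gene at 9.31 and 8.98 TPM. By mean and SD the order H2afz, H2afy and then the pair H2afj and H2afv is separated by more than the spread, while H2afj at 23.3 ± 3.95 TPM and H2afv at 20.1 ± 0.42 TPM (SD, n = 2) are not.

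Among the H2A variants H2afj was called between the libraries, lower in replicate 1 with a log2 ratio of -0.31 (exact binomial test, adjusted p = 9.38e-05), which became -0.19 in the second quantification. H2afz (0.01), H2afy (-0.01), H2afv (0.14) and H2afx (0.18) were not called, which does not show that their levels were equal. H2afz was called higher in replicate 1 in the second quantification, with a log2 ratio of 0.13, and lower under scaling by total counts, with -0.13, so it has no direction that holds over these choices. H2afx and H2afv were called higher in replicate 1 in the second quantification, with log2 ratios of 0.25 and 0.21, and H2afy was called lower under total counts, with -0.15, and had 0.065 in the second quantification, not called.

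The same transcript led each gene in both libraries, as the plot of transcript shares shows. H2afz-201 took 97.9% of its gene's TPM in replicate 1 and 94.7% in replicate 2. H2afy was the most divided, with 41.0% and 37.4% in H2afy-201, 31.8% and 34.2% in H2afy-204 and 24.7% and 20.5% in H2afy-202. H2afy-204 is annotated as a processed transcript, so that share of the gene's TPM was assigned to a form that is not annotated as coding. H2afj-201 took 64.9% and 70.2%, and H2afv-202 took 53.5% and 55.3%. The transcripts of a gene share most of their sequence, and their shares are estimates of the quantification.

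**Figure D3:**
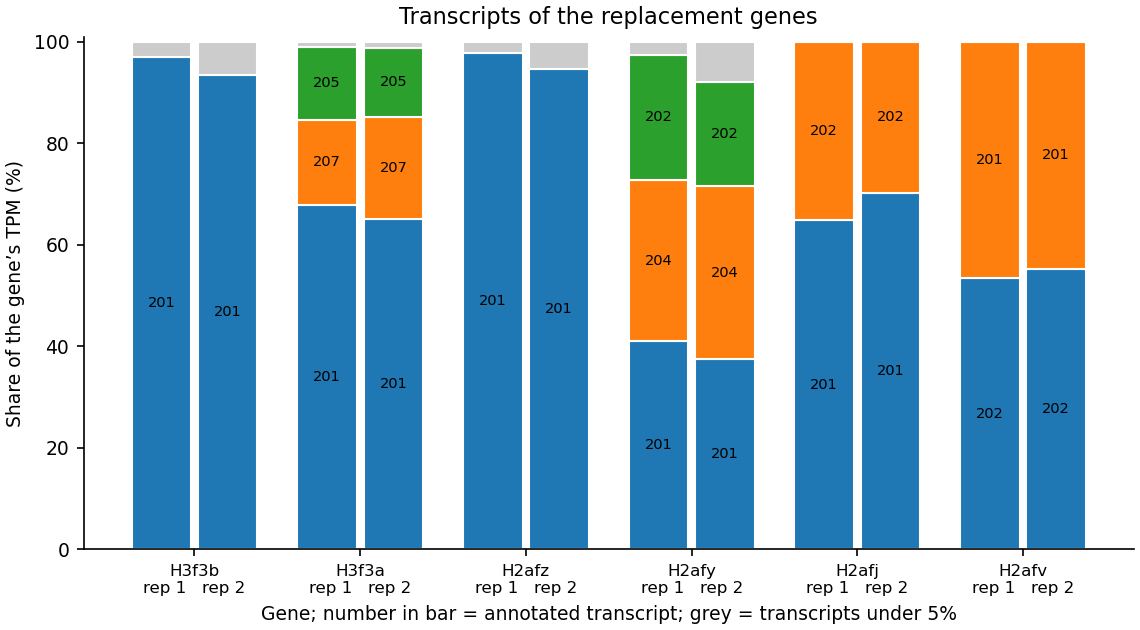
Share of each gene's TPM, in percent, assigned to its annotated transcripts in replicate 1 (left bar of each pair) and replicate 2 (right bar), with transcripts under 5% in both libraries in grey. H3f3b and H2afz rest on 1 transcript each, while H3f3a and H2afy are divided over 3.

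The linker histone genes were led by a clustered gene. Hist1h1c (ENSMUSG00000036181.2, chromosome 13, 23738808 to 23740367, plus strand), which encodes a somatic H1, had 122 TPM in replicate 1 and 211 TPM in replicate 2. H1f0 (ENSMUSG00000096210.2, chromosome 15, 79028450 to 79030504, plus strand), the linker histone gene known from differentiated and non-dividing cells, had 47.4 TPM in replicate 1 and 80.8 TPM in replicate 2. Both were lower in replicate 1 by nearly the same factor. The log2 ratio of replicate 1 over replicate 2 was -0.67 for Hist1h1c (exact binomial test, adjusted p = 4.63e-138) and -0.66 for H1f0 (adjusted p = 1.66e-71). Of the stretches of 31 bases in these genes' transcripts, 11.4% in Hist1h1c and 0.00% in H1f0 occur in another gene, so few or none of their reads can match another gene. Hist1h1d was also lower in replicate 1, with 58.0 counts against 205 in replicate 2 and a log2 ratio of -1.21 (exact binomial test, adjusted p = 5.67e-09), at 0.32 and 0.81 TPM. Its annotated transcript runs for 7425 bases, of which 4884 follow the stem-loop, and where in it the reads lie was not analysed here. Hist1h1e had 9.00 and 18.7 counts and was not called, and the other 3 clustered H1 genes had under 10 counts over both libraries.

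The highest core histone gene of the clusters was Hist1h2bc (ENSMUSG00000018102.5, chromosome 13, 23684199 to 23692908, plus strand), an H2B gene, at 113 TPM in replicate 1 and 144 TPM in replicate 2. Its transcript has 2 exons and 742 bases after the stop codon with no stem-loop, unlike most of the clustered genes. It was lower in replicate 1, with a log2 ratio of -0.21 (exact binomial test, adjusted p = 9.14e-09). Hist2h2be, another H2B gene without a stem-loop in its 2192 bases after the stop codon, had 5.64 and 7.47 TPM and a log2 ratio of -0.30 (exact binomial test, adjusted p = 0.00476). Hist1h2bg had 23.3 and 53.0 counts (2.62 and 4.52 TPM), and its log2 ratio of -0.59 was not called. Its 31-base stretches are shared to 56.3% with other genes, and in the second quantification its log2 ratio of -0.65 was called.

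Core H2A RNA of the clusters came mainly from Hist2h2aa1, Hist2h2aa2, Hist3h2a and Hist1h2ap. Hist2h2aa2 (chromosome 3, 96239749 to 96240276, minus strand) had 75.1 TPM in replicate 1 and 60.5 TPM in replicate 2, and Hist2h2aa1 (chromosome 3, 96245497 to 96246082, plus strand) had 23.6 and 41.6 TPM. Taken singly they were called in opposite directions, Hist2h2aa2 higher in replicate 1 with a log2 ratio of 0.53 and Hist2h2aa1 lower with -0.61. Their sequence is nearly the same, with 100% of the 31-base stretches of Hist2h2aa2 and 89.7% of those of Hist2h2aa1 found in another gene. Summed, the pair had 693 counts in replicate 1 and 966 in replicate 2, a log2 ratio of 0.12 that was not called (exact binomial test, adjusted p = 0.145). The opposite directions of the single genes are therefore uncertain.

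Hist3h2a (chromosome 11, 58954685 to 58956830, plus strand) had 21.6 TPM in replicate 1 and 30.4 TPM in replicate 2, lower in replicate 1 with a log2 ratio of -0.38 (exact binomial test, adjusted p = 1.79e-11). It lies within Trim17 on the same strand, and Trim17 itself had 1.55 and 32.5 counts against 1016 and 2004 for Hist3h2a. Hist1h2ap (ENSMUSG00000094777.2, chromosome 13, 21833026 to 21833507, minus strand) went the other way, with 103 counts in replicate 1 and 41.8 in replicate 2, or 18.5 and 5.85 TPM. Its log2 ratio of 1.88 was the largest in size, in the gene table, of any member with 50 or more counts in a library (exact binomial test, adjusted p = 2.08e-13). In the second quantification it was 1.95, below Hist2h2aa2 at 4.43 and below Hist2h3c1, which had 61.2 counts in replicate 1 and 0 in replicate 2. Of its 31-base stretches 93.4% occur in Hist1h2ao, which had 0 counts in both libraries, so its reads can also be those of a near copy. Its effective length, the number of places a fragment can start, was 223 bases in replicate 1 and 202 bases in replicate 2, so a few counts make a high TPM.

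Hist1h4i (chromosome 13, 22040636 to 22041362, minus strand) was the main H4 gene, with 112 and 250 counts, or 9.68 and 16.1 TPM. It was lower in replicate 1, with a log2 ratio of -0.56 (exact binomial test, adjusted p = 0.00131). The other 2 detected H4 genes, Hist1h4h and Hist1h4m, had 13.0 and 12 counts and 9.84 and 5.75 counts, and were not called. Clustered H3 genes were low in this polyadenylated RNA, which does not show that they were inactive. Their summed TPM was 8.89 in replicate 1 and 9.64 in replicate 2. Hist2h3c1 gave 5.71 and 6.36 TPM of it, and Hist2h3c2 gave 2.46 and 2.33 TPM. In the second quantification Hist2h3c1 had 1.20 and 0.00 TPM, and 100% of its 31-base stretches occur in another gene. The other 10 clustered H3 genes were below 1 TPM in both libraries.

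Several detected genes lay beside undetected ones, and others beside detected ones. The Hist1 cluster spans chromosome 13 from 21715763 to 23934851 and holds 54 members, 8 of them detected, and the Hist2 cluster spans chromosome 3 from 96219865 to 96270132 with 10 members, 5 of them detected. Hist1h2bc lies 250 bases from Hist1h2ac, on the opposite strand, which had 6.13 and 10 counts (0.11 and 0.13 TPM). Hist1h2ap lies 235 bases from Hist1h2br, which had 0.00 and 1.68 counts. On chromosome 6, H2afj lies 3828 bases from Hist4h4, the single member of its cluster, which had 2.00 and 6.00 counts (0.03 and 0.07 TPM). In the Hist2 cluster, by contrast, Hist2h2aa2 lies 621 bases from Hist2h3c2 and Hist2h2aa1 lies 602 bases from Hist2h3c1, and all 4 were detected. Hist1h1c at 122 and 211 TPM stood 4605 bases from Hist1h3c, which had 0 counts in both libraries.

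Grouped by their annotated 3′ end, the clustered genes with an annotated UTR were detected at similar shares, from 22.2% to 31.8% by group. Those annotated to about the stop codon were not detected. Over all genes with a protein-coding transcript the share was 45.5%. With a stem-loop and at most 100 bases after it there were 21 genes, 5 of them detected, with a median of 0.18 TPM. With a stem-loop and a longer end, of at least 151 bases, there were 22 genes, 7 of them detected, with a median of 0.27 TPM. Another 9 had a UTR with no stem-loop, 2 of them detected, and 15 were annotated to about the stop codon, none of them detected and 13 at 0 counts. By poly(A) signal word, 7 of 17 genes (41.2%) were detected among those that had the word and 7 of 50 (14%) were detected among those that had none. The 50 take in all 15 genes annotated to about the stop codon, which have almost no annotated UTR to hold the word. The contrast is thus partly set by the annotation. Clustered genes with the word held 5697 counts in replicate 1 and 12839 in replicate 2, of which Hist1h1c alone gave 3955 and 9512. Those without the word held 3505 and 5849, of which Hist1h2bc gave 2519 and 4424. These are counts of genes that share sequence and a common annotation, and no test was made of them. An annotation that stops early also shortens the sequence to which reads can be assigned.

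**Figure D4:**
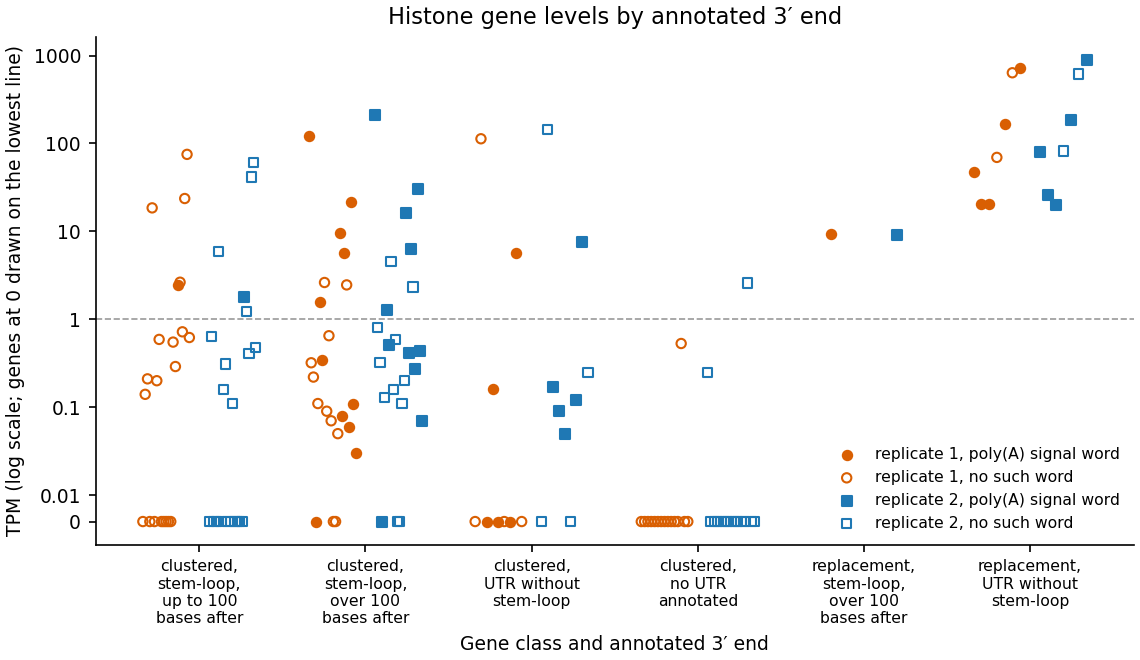
Level of each of the 75 histone genes, in TPM on a log axis, by class and annotated 3′ end, in replicate 1 (circles) and replicate 2 (squares), with genes at 0 on the lowest line. Filled marks have AATAAA or ATTAAA in the last 50 bases. Clustered genes spread from 0 to 211 TPM within both stem-loop groups together, while no replacement gene lies below 8.98 TPM.

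Of the 29 histone genes with enough counts to be tested, 13 differed between the libraries, or 44.8%, against 59.6% of all 14110 genes tested. Higher in replicate 1 were 3 of 29 (10.3%), against 30.1% of all genes, and lower in replicate 1 were 10 of 29 (34.5%), against 29.4%. Past 2-fold were Hist1h2ap, higher in replicate 1, and Hist1h1d, lower in replicate 1, against 3.94% and 7.17% of all genes past 2-fold in those directions. The median log2 ratio over the 29 genes was -0.18, beside -0.0022 over all genes tested. In the second quantification 21 members were called, 7 higher and 14 lower in replicate 1, and the median was -0.063. In the gene table the median was -0.30 over the 21 clustered genes tested and 0.0024 over the 8 replacement genes. Genes that were tested had to have counts, so these shares describe the 29 and not all 75 members. Scaling by total counts moves the median of all genes by -0.14, and a member's ratio moves with it.

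By 3′ end, the clustered genes with a stem-loop and a longer end gave 0 higher and 4 lower in replicate 1 of 14 tested, with a median log2 ratio of -0.41. The 4 were Hist1h1c, Hist3h2a, Hist1h4i and Hist1h1d, and 28.6% of those tested is close to the 29.4% of all genes. With at most 100 bases after the stem-loop, 2 were higher and 1 was lower of 5 tested, namely Hist1h2ap, Hist2h2aa2 and Hist2h2aa1, and the Hist2h2aa pair has no certain direction singly. The difference between the groups was not tested.

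**Figure D5:**
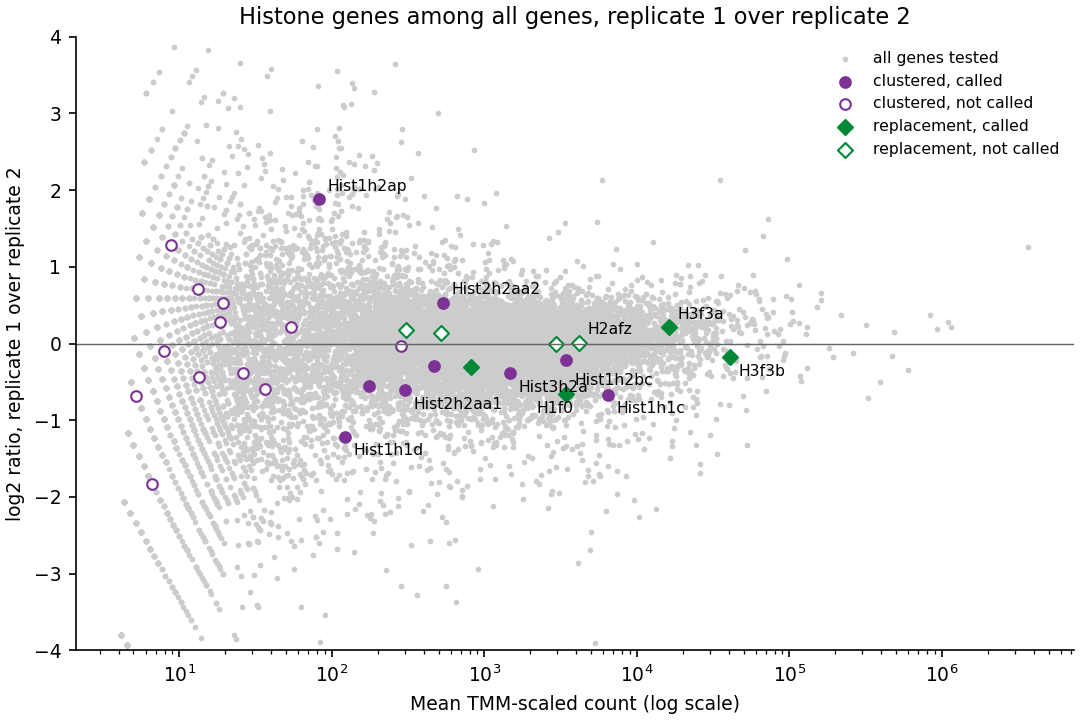
log2 ratio of replicate 1 over replicate 2 against the mean TMM-scaled count on a log axis, for all genes tested (grey) and for histone genes (colour, filled where called by the exact binomial test), with 87 genes outside the plotted range. Most called histone genes lie below 0 and within the cloud of all genes, and Hist1h2ap at 1.88 lies furthest above 0.

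Genes that act on histones were read from lists chosen with earlier results of these data known. Their shares are therefore descriptions and no support for a result. Slbp is in both the S phase list and the list of histone mRNA 3′ ends. Of 30 S phase genes, 27 (90%) were higher in replicate 1 and 1 was lower, against 30.1% higher and 29.4% lower of all genes tested. Over 2-fold higher were 12 of the 30, against 3.94% of all genes, and the median log2 ratio was 0.95. Pcna, the replication clamp, had 376 TPM in replicate 1 and 236 TPM in replicate 2, and Mcm6, of the replicative helicase, had 37.7 and 23.2 TPM. Of the 29 histone genes tested, 10.3% were called higher in replicate 1 and 34.5% lower, against the same 30.1% and 29.4% of all genes. Those called higher were Hist1h2ap, Hist2h2aa2 and H3f3a, of which Hist2h2aa2 has no certain direction singly. Neutrophil markers also stood higher in replicate 1, with 9 of 10 tested called higher. So did megakaryocyte markers, with 3 of 4 tested called higher and sums of 972 TPM in replicate 1 and 253 TPM in replicate 2, nearly all from Pf4 at 962 and 250 TPM. The part of cell makeup, neutrophil or megakaryocyte RNA or ribosomal RNA in the histone ratios was not tested.

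Most genes listed for histone mRNA 3′ ends were detected as RNA in both libraries. Lsm11 fell short of 1 TPM in replicate 2, at 1.37 and 0.88 TPM, and Zfp473 in both, at 0.42 and 0.39 TPM. Of 18 genes of histone mRNA 3′ end formation and transcription, 16 reached 1 TPM in each library, 6 (33.3%) were higher and 5 (27.8%) lower in replicate 1, close to the background, and the median log2 ratio was 0.02. Slbp, which encodes the stem-loop binding protein, had 23.6 TPM in replicate 1 and 21.8 TPM in replicate 2 and was higher in replicate 1, with a log2 ratio of 0.24 (exact binomial test, adjusted p = 0.000394). Under total counts 2 genes of this list were called higher and 8 lower. Npat, the coactivator of clustered histone transcription, had 3.61 and 5.65 TPM and was lower in replicate 1, with a log2 ratio of -0.55 (exact binomial test, adjusted p = 1.22e-12). The highest of the list were the Sm protein genes Snrpb at 93.1 and 86.7 TPM and Snrpe at 80.2 and 74.7 TPM.

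All 25 genes of histone chaperones and deposition reached 1 TPM in each library. In replicate 1, 15 of them (60%) were higher and 6 (24%) lower, against 30.1% and 29.4% of all genes tested, with a median log2 ratio of 0.22. Asf1b, an H3 and H4 chaperone, was called higher in replicate 1 at 8.64 TPM, against 2.56 TPM in replicate 2 (log2 ratio 1.62), and so was Chaf1a, the large subunit of the replication-coupled assembly factor, at 3.65 and 2.16 TPM (log2 ratio 1.13). Hira and Daxx encode chaperones of the replacement H3 protein. Hira had 12.5 and 16.7 TPM and was not called (log2 ratio -0.13), and Daxx had 39.3 and 59.9 TPM and was lower in replicate 1 (log2 ratio -0.49). Nasp, which holds free H3 and H4, had 18.6 and 19.3 TPM and was not called (log2 ratio 0.08). The highest of the list were Npm1 at 142 and 230 TPM, lower in replicate 1, and Set at 123 and 113 TPM, higher in replicate 1.

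Of 10 histone variant genes outside the member rule, 2 reached 1 TPM in each library. Cenpa, the H3 variant of centromeres, had 54.8 TPM in replicate 1 and 74.4 TPM in replicate 2 and was lower in replicate 1 (log2 ratio -0.52). H2afy2, which encodes another macroH2A, had 3.16 and 2.88 TPM and was not called. H1fx had 1.00 and 0.00 counts.

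Several of the clustered values differed between the quantifications, and many clustered genes share sequence. The part of read assignment in this was not tested. Over 50% of the 31-base stretches occur in another gene for 40 of 67 clustered genes and for none of the 8 replacement genes, with medians of 58.5% and 7.96%. Between the gene table and the second deposited quantification, Hist2h3c1 and Hist1h4n were over 2-fold apart in TPM in the same direction in both libraries, among 24 members at a mean of 1 TPM or more in either. Over all such genes with a protein-coding transcript the share was 1.46%. Hist2h3c1 had 5.71 TPM in replicate 1 and 6.36 TPM in replicate 2 in the gene table, against 1.20 and 0.00 TPM in the second quantification. Hist1h4n had 0.72 and 0.41 TPM against 1.70 and 1.02 TPM. Hist2h2aa2 also differed, mainly in replicate 2, with 75.1 and 60.5 TPM against 39.3 and 2.31 TPM, while Hist2h2aa1 had 23.6 and 41.6 TPM against 26.3 and 61.4 TPM.

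Hist2h3c1 and Hist2h2aa1 share their place with Gm20634 (chromosome 3, 96245554 to 96248509, plus strand), annotated as a processed transcript. Gm20634 runs over all 1825 bases of Hist2h3c1 and 529 bases of Hist2h2aa1. Hist2h2aa2 lies outside Gm20634, on the minus strand, but 100% of its 31-base stretches occur in Gm20634. Gm20634 had 380 and 989 counts in the gene table and 595 and 1447 in the second quantification. Hist2h2aa1, Hist2h2aa2, Hist2h3c1 and Gm20634 together had 1296 and 2301 counts in the gene table and 1344 and 2395 in the second quantification, so the sum moved little while its division changed. The pair of H2A genes alone summed to 693 and 966 counts in the gene table and 687 and 947 in the second quantification. The RNA of this stretch of the Hist2 cluster is thus measured, but its division among the 4 genes is not settled by these files. The antisense genes Gm20632 and Gm20633, which cover Hist2h2aa2 and Hist2h2aa1, had 81.7 and 124 counts and 32.2 and 44.7 counts.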

How the data were processed

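RNA was sequenced in 2 libraries of 1 group. The genome build was mm10 and the annotation M21, per a deposited text file. The sources used here do not give the quantification tools. Per the file headers, the gene and transcript tables hold expected counts, which the authors did not normalize, TPM, a posterior mean TPM, the share of each transcript in its gene as a percent, and bounds of a credibility interval of TPM (a signal in TPM units of unstated level, deposited and not used). A second deposited quantification gave estimated counts and TPM per transcript, summed here per gene and used as an alternative. Entries that name no gene held 0.0891% and 0.0698% of counts and were left out.

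Counts were rounded and scaled by TMM (edgeR 4.0.16) or, as alternatives, by total counts or DESeq2 1.42.0 size factors. Genes with 10 or more counts over both libraries were tested by an exact two-sided binomial test (scipy 1.17.1), with Benjamini-Hochberg adjustment over all genes tested and a threshold of 0.05, a step also tested on simulated data. Log2 ratios used a prior count of 0.5. With 1 group there was no test between conditions. The depth of 37784941 and 51904470 counts limits genes at 0 to 0.0794 and 0.0578 CPM. Named with values were all replacement genes, clustered genes at a mean of 10 TPM, the 10 largest ratios among members with 50 counts in a library, members that differ between quantifications, and set genes of each list. Others named, with their neighbours and overlapping genes, were chosen after their values were seen. Sequences came from GENCODE M21 transcripts. The members and lists were chosen with earlier results of these data known. Other libraries than these were not analysed here.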

Additional observations from a re-analysis of the deposited data

How the results depend on the processing

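No paired analysis was possible because both libraries belong to a single group. With 1 library left out there is no ratio and no test. The 22 detected members came to 17 to 24 over the other limits and estimates and to 22 or 23 with 1 library left out. The replacement share of histone counts, 83.7% as a mean of the libraries, was 82.1% to 85.3% with 1 library left out and 79.1% from TPM. In place of TPM, counts gave replacement shares of 34.4% for H1, 78.3% for H2A and 99.4% for H3. The second quantification gave 72.0% for H2A and 99.7% for H3, and the posterior mean gave 99.3% for H3. In the second quantification 21 members were called, 7 of them higher in replicate 1, beside 13 and 3. Asking for more than 2-fold left 2, of which 1 was higher and 1 lower. The median log2 ratio of -0.18 became -0.32 with total counts and -0.063 in the second quantification. Of the genes of histone mRNA 3′ ends, total counts gave 2 higher and 8 lower, and the second quantification gave 3 lower. Of the other variants, 1 was higher in the second quantification. The ratio changed sign for H2afz with total counts (-0.13), for H2afy (0.065, not called) and Hist2h3c1 (7.67) in the second quantification, for Hist2h2aa1 when summed with Hist2h2aa2 (0.12), and for Hist2h2aa2 when Hist2h3c1 and Gm20634 were added (-0.23). The value of 7.67 is set by the prior count, since replicate 2 had 0 counts there. With 3 counts set in that library, the second quantification gave a ratio of about 33.9-fold. That is no lower bound for the gene, since the floor covers counting error and not read assignment. Of the 31-base stretches of Hist2h3c1, 100% occur in Gm20634. In the gene table Hist2h3c1 had 223 and 346 counts and a log2 ratio of -0.03, not called. The sums were chosen after seeing the data. The other causes were not tested. Of the single-gene values under alternatives, 159 kept direction and call or stayed within the spread, and 11 levels moved by more than the spread. Of 105 ratios, 7 became called, 2 lost the call and 5 changed sign, some of them in more than 1 of these ways. Depth limits what can be said of genes of few counts, and 29 of 75 members had the 10 counts a test needed.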

Other observations

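The 3 symbols of the cluster pattern without a protein-coding transcript were nearly silent. Hist3h2bb-ps had 2.00 counts in replicate 1 and 6.00 in replicate 2, and Hist1h2aj and Hist1h2al had 0 counts in both.

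The stem-loop pattern was also present in coding transcripts of 23 genes that are not histone members, on the transcript strand, and 10 of these reached 1 TPM in each library. Whether it forms a stem-loop there was not tested.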
